A study of Mus musculus with 8 samples.

Results

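The lysosome is the acidic compartment in which cells take proteins, glycans and lipids apart, and the genes described here encode its enzymes, its membrane proteins, the proton pump that acidifies it and transcription factors that are known to drive its genes. There were 60 such genes among the 38392 genes measured. They comprised 36 genes listed by name and 24 whose symbol begins with Atp6v. By role they were 33 hydrolases and other lysosomal proteins, 22 subunits of the vacuolar proton pump (V-ATPase), 3 transcription factors (Tfeb, Tfe3 and Mitf), and 2 genes that share the symbol prefix and encode no known subunit: the pseudogene Atp6v0c-ps2 and Atp6v1fnb, a neighbour of Atp6v1f.

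Eosinophils, granulocytes that are made in the bone marrow and settle in the gut, were sorted from the bone marrow or the small intestine of wildtype C57/BL6 mice, and their RNA was sequenced to ask how the transcriptome differs between these tissues. There were 4 libraries from bone marrow (BM_1, BM_3, BM_4 and BM_5) and 4 from small intestine (SI_6, SI_7, SI_10 and SI_11), all from female mice whose ages were not given by group. Cells were gated as CD11b+Ly6G-Ly6C-SiglecF+SSChi in bone marrow and as CD11b+MHC-II-SiglecF+SSChi in the intestine, so the gates differed too. No treatment was given and RNA was extracted right after the sort. Intestinal cells had been stripped of epithelium, released by warm collagenase digestion and enriched on CD11b beads, whereas marrow was flushed out, so that effects of tissue, gate and handling cannot be told apart.

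Newly made hydrolases receive a mannose 6-phosphate tag in the Golgi and are carried to the lysosome by receptors for that tag. The V-ATPase has a cytosolic V1 sector that hydrolyses ATP and a membrane V0 sector through which protons pass. TFEB, TFE3 and MITF are related basic helix-loop-helix factors that bind E-box sequences in promoters of lysosomal genes, and mTORC1 on the lysosomal surface keeps TFEB and TFE3 in the cytosol when nutrients are plentiful.

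Because the family binds E-boxes, promoter windows of the genes were read from RefSeq (build GRCm38.p6, 250 bases before to 50 after a start site). Windows were found for 49 of the 60 genes. Shown are examples among genes that were higher in small intestine (Lgmn, Atp6v0b, Atp6v0d1, Arsa), lower (Glb1, Atp6v1a, Ctsd) or without a called difference (Lamp1, Gaa, Grn), each on the strand of its gene with the searched motif in capitals:
Lgmn: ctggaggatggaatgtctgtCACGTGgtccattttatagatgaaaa
Atp6v0b: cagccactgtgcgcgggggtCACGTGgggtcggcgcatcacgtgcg
Atp6v0d1: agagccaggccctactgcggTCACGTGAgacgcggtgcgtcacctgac
Arsa: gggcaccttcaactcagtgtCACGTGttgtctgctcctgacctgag
Glb1: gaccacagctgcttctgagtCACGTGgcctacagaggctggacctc
Atp6v1a: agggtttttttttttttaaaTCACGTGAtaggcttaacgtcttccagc
Ctsd: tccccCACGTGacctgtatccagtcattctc
Lamp1: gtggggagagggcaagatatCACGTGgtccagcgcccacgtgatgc
Gaa: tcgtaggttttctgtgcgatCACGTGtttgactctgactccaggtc
Grn: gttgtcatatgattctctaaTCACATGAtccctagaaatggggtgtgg

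These windows lie at chr12:102439116-102439161, minus strand (Lgmn), chr4:117887340-117887385, minus strand (Atp6v0b), chr8:105566041-105566088, minus strand (Atp6v0d1), chr15:89477415-89477460, minus strand (Arsa) and chr9:114401010-114401055, plus strand (Glb1). The others lie at chr16:44139364-44139411, minus strand (Atp6v1a), chr7:142388047-142388077, minus strand (Ctsd), chr8:13159080-13159125, plus strand (Lamp1), chr11:119267803-119267848, plus strand (Gaa) and chr11:102430276-102430323, plus strand (Grn). By the GENCODE M21 gene models (GRCm38), the windows of Lgmn and Atp6v1a lay in introns of longer transcripts of their genes, those of Arsa, Grn and Atp6v0d1 overlapped an exon by 11, 9 and 7 bases, and the other 5 overlapped no exon. The Lamp1 and Atp6v0b windows each hold a further E-box in lower case.

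The letters searched were CACGTG, the core E-box, TCACGTGA, a longer palindrome that contains it, and TCATGTGA, the M-box; CACGTG and TCACGTGA read the same on both strands, and TCATGTGA was searched on both. CACGTG occurred in a promoter of 16 of the 49 genes (32.7%), against 2187 of all 27025 genes in the table (8.09%). TCACGTGA was found for 7 of the 49 genes (14.3%; 1.12% of all genes) and TCATGTGA for 6 (12.2%; 1.15% of all genes). Among the genes with a window, CACGTG stood in 6 of 18 that were higher in small intestine (33.3%), in 4 of 12 that were lower (33.3%) and in 6 of 19 with no called difference (31.6%). The E-box share was thus close to the same in the genes of each direction. None of the 8 windows of Tfeb, Tfe3 and Mitf themselves held any of these letters. A match is a description of the sequence, not a bound site.

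**Figure D1:**
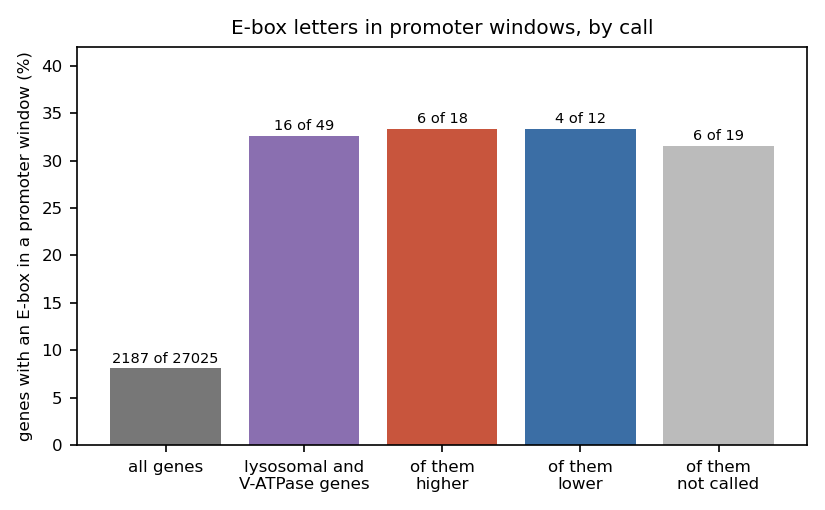
Percentage of genes with the E-box core in at least 1 promoter window, for all genes in the table and for the lysosomal and V-ATPase genes, also split by the difference between small intestine and bone marrow. The bars for genes that were higher, lower or not called stand at 33.3%, 33.3% and 31.6%, and the bar for all genes at 8.09%.

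The deposited values are on a variance-stabilised log2 scale, and "difference" below means small intestine minus bone marrow on that scale, with its standard error. Whole reads could be recovered from these values (11508002 to 21289164 per library), and "normalised reads" are those reads divided by the size factor of the library, given in the order BM_1, BM_3, BM_4, BM_5 and then SI_6, SI_7, SI_10, SI_11. A gene was called when limma's moderated test gave an adjusted p of at most 0.05 over all 38392 genes. By that rule 23 of the 60 genes were higher in small intestine (38.3%), 16 were lower (26.7%) and 21 were not called, against 22.0% higher and 12.9% lower among all genes. Of the 55 genes among them whose mean reached 10 normalised reads in at least 1 tissue, 23 were higher (41.8%) and 15 lower (27.3%), against 36.6% and 26.2% of the 17941 such genes in the whole table. These shares lay near the background, and no test was made of the difference. The 8 libraries separated without overlap for 41 of the 60 genes (68.3%; 34.3% of all genes and 65.3% of the 17941). The median difference was 0.30 over the 60 genes and 0.37 over all genes tested, and 0.27 over the 55 against 0.31 over the 17941. Where the mean over all 8 libraries had to reach 10 reads instead, it was 0.27 over 54 of the genes and 0.16 over 16308, so the side of the background on which the lysosomal genes lay changed with the cut on low reads. Of all calls 63.2% were higher in small intestine, but 45.8% after quantile normalisation, which moved the median over all genes to -0.03.

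5 of the 60 genes did not reach a mean of 10 normalised reads in either tissue: Atp6v1b1, Atp6v1e2, Atp6v1c2, Atp6v1g3 and Atp6v0c-ps2. Their calls are uncertain, as are those of Atp6v0e2, Atp6v0d2, Atp6v0a4 and Atp6v1fnb, which reached that mean only in small intestine.

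Transcripts of other cell types were present, and no marker list summed to 0 in any library. Of 6 eosinophil genes 3 were higher in small intestine and 3 lower. The surface receptors Ccr3, Il5ra and Siglecf averaged 70.9, 11.04 and 580 normalised reads in bone marrow and 16351, 1107 and 3076 in small intestine. The granule genes Epx, Prg2 and Prg3 averaged 349.9, 1831 and 47.4 in bone marrow and 20.6, 147 and 6.54 in small intestine. 11 genes of neutrophil precursors (Mpo, Elane and others) summed to between 382867 and 480025 normalised reads in the bone marrow libraries and 533 to 654 in the intestinal ones, and all 11 were called lower in small intestine. In bone marrow these 11 genes averaged 3.30% of all reads, far above the 0.0217% of the 6 eosinophil genes. In small intestine the averages were 0.00374% and 0.129%. The share of other cells among those sorted was not tested. 14 macrophage and dendritic cell genes summed to 912 to 1081 and 15264 to 20263 (9 higher, 1 lower). Adgre1, which eosinophils also express, made up 13672 of the latter on average. The MHC class II genes H2-Aa and H2-Ab1 averaged 1677 and 1093 in small intestine, with the most in SI_6 (3148 and 2043), although the gate was MHC-II negative. Csf1r averaged 1301, Mertk 207, C1qa, C1qb and C1qc 76.8, 185 and 115, Mrc1 115, and the other 5 genes between 10.7 and 32.00. 10 epithelial genes summed to 84.2 to 126 in bone marrow and from 6450 (SI_10) to 49594 (SI_6) in small intestine. 6 plasma cell and B cell genes summed to 259 to 458 in bone marrow and from 2205 (SI_10) to 18042 (SI_6) in small intestine (2 higher, 1 lower), nearly all of the latter from Igkc and Jchain. 6 fibroblast genes summed to 5.74 to 61.4 and 154 to 724 (5 higher), and 5 erythroid genes, all lower in small intestine, to 738 to 952 and 45.04 to 116. 10 genes of the response to tissue dissociation were all higher in small intestine (472 to 731 against 58832 to 77959). The part of these transcripts in the differences below was not tested, and in such bulk samples fewer cells of a type and less RNA per cell cannot be told apart. With both BM_5, the lowest bone marrow library for 36 of 51 lysosomal genes, and SI_6 left out, 24 genes were called higher and 18 lower.

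Of 10 lysosomal proteases 6 rose in small intestine (60%) and 2 fell (20%), with a median difference of 0.92. Among the 17941 genes with at least 10 reads in a tissue, 36.6% rose and 26.2% fell, with a median of 0.31. No test was made of so short a list. Ctsh, an aminopeptidase of the cysteine cathepsin family (chr9:90054152-90076089), measured 899, 918, 931 and 838 normalised reads in bone marrow and 7841, 9524, 9569 and 12153 in small intestine. Every intestinal library was far above every bone marrow library, a 10.9-fold difference of the means (difference 3.42 ± 0.20, adjusted p = 5.62e-06). Lgmn, the asparaginyl endopeptidase legumain (chr12:102394084-102439813), measured 19.9, 28.04, 20.1 and 15.8 normalised reads in bone marrow and 396, 523, 364 and 327 in small intestine. It was low in marrow and 19.2-fold higher in small intestine (difference 4.05 ± 0.23, adjusted p = 6.23e-06), the largest difference among the 60 genes.

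Ctss, the cathepsin that trims the invariant chain of MHC class II, measured 96.5, 66.5, 92.8 and 81.8 normalised reads in bone marrow and 576, 467, 223 and 325 in small intestine (difference 2.11 ± 0.31, adjusted p = 9.38e-04). The highest value was in SI_6, which also held the most epithelial and macrophage marker reads, and without SI_6 the difference was 1.91. Ctsl, a cysteine endopeptidase (chr13:64359337-64370890), measured 147, 125, 102 and 98.5 normalised reads in bone marrow and 354, 325, 435 and 453 in small intestine (difference 1.70 ± 0.22, adjusted p = 4.08e-04). The carboxypeptidase Ctsa, which also protects beta-galactosidase and the sialidase Neu1 from breakdown, rose by 1.01 (1114 ± 177 to 2237 ± 265 normalised reads, mean ± SD, n = 4 each, adjusted p = 0.00437). Ctsc, the dipeptidyl peptidase that activates granule serine proteases, rose by 0.84 (adjusted p = 0.0171). Its intestinal level ran from 410 normalised reads in SI_10 to 677 in SI_6, in the library order of the summed epithelial genes.

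Ctsb, the cysteine cathepsin with the highest level per kb in bone marrow (chr14:63122462-63145923), went the other way, with 4305, 3561, 4202 and 2995 normalised reads in bone marrow and 1665, 1298, 913 and 1144 in small intestine. The intestinal libraries were all below those of bone marrow (difference -1.60 ± 0.24, adjusted p = 0.00105). The aspartic protease Ctsd measured 2686, 2538, 2364 and 1978 normalised reads in bone marrow and 1574, 1445, 1315 and 1898 in small intestine. It fell by less (difference -0.62 ± 0.20, adjusted p = 0.0433), and the call was lost when BM_1, BM_3, BM_4 or SI_7 was left out, at adjusted p values from 0.0620 to 0.106. Tpp1 and Ctsz, a tripeptidyl peptidase and a carboxypeptidase, were not called, with differences of -0.18 ± 0.17 and -0.27 ± 0.18.

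Within each library the ratio of Ctsl to Ctsb reads was 0.0244 to 0.0350 in bone marrow and 0.212 to 0.477 in small intestine. On the log2 scale the difference between the tissues was 3.30, with no overlap (two-sided exact permutation test, p = 0.0286, the smallest that 4 against 4 libraries allow; adjusted p = 0.0367 over the 9 pairs of related genes that were compared). The ratio of Ctsh to Ctsb reads, given as a description, was 0.209 to 0.280 in bone marrow and 4.71 to 10.6 in small intestine.

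**Figure D2:**
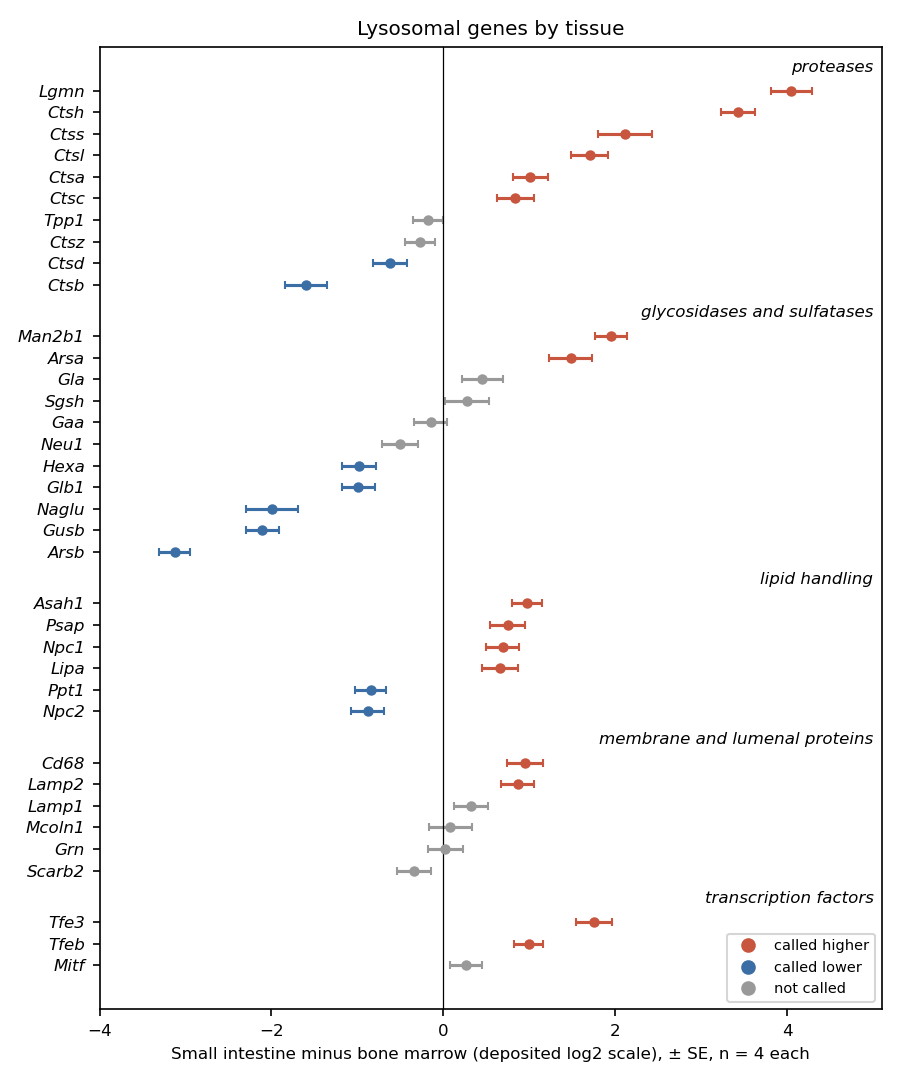
Difference between small intestine and bone marrow (deposited log2 scale, ± SE, n = 4 libraries each) for the 33 hydrolases and other lysosomal proteins and the 3 transcription factors, ordered within each role. The genes spread to both sides of 0 within the proteases, the glycosidases and sulfatases and the lipid-handling genes, from 4.05 for Lgmn to -3.12 for Arsb.

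Among 11 glycosidases and sulfatases, which remove sugars and sulfates from glycans and lipids, 2 rose (18.2%) and 5 fell (45.5%), with a median difference of -0.50. Of the 17941 genes with at least 10 reads in a tissue, 36.6% rose and 26.2% fell, with a median of 0.31. No test was made of so short a list. Arsb, the sulfatase of dermatan and chondroitin sulfate (chr13:93771630-93943016), measured 3103, 2532, 2718 and 2553 normalised reads in bone marrow and 291, 304, 287 and 357 in small intestine. All 4 intestinal libraries were far below bone marrow and close to one another, with a mean 8.81-fold lower (difference -3.12 ± 0.18, adjusted p = 5.89e-06). Gusb, the beta-glucuronidase of the same glycosaminoglycans (chr5:129989011-130003049), measured 1631, 1477, 1873 and 1398 normalised reads in bone marrow and 348, 336, 350.1 and 435 in small intestine (difference -2.11 ± 0.19, adjusted p = 6.31e-05). Naglu, which acts on heparan sulfate, measured 98.8, 93.3, 80.4 and 55.8 normalised reads in bone marrow and 26.2, 9.71, 16.4 and 21.3 in small intestine (difference -1.99 ± 0.31, adjusted p = 0.00111).

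Hexa, the alpha subunit of beta-hexosaminidase, the glycosidase with the highest level per kb in bone marrow, measured 1485, 1532, 1488 and 1163 normalised reads in bone marrow and 698, 643, 647 and 874 in small intestine (difference -0.99 ± 0.20, adjusted p = 0.00459). The beta-galactosidase Glb1 had the same size of difference (507, 423, 433 and 346 normalised reads in bone marrow against 237, 218, 186 and 207, difference -0.99 ± 0.19, adjusted p = 0.00417). Gla, Sgsh, Gaa and Neu1, which act on alpha-galactosides, heparan sulfate, glycogen and sialic acid, were not called, with differences of 0.45, 0.27, -0.15 and -0.50. Gla passed the threshold without SI_6 (0.63, adjusted p = 0.0190), with or without BM_5, and with a mean-variance trend (adjusted p = 0.0478). Neu1 passed as lower with a filter on low values (adjusted p = 0.0256), quantile normalisation (0.0292), a mean-variance trend (0.00836) or voom on the recovered reads (0.00518), and without SI_11 (0.0352), with differences of -0.50 to -0.61.

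Man2b1, the lysosomal alpha-mannosidase (chr8:85083270-85098282), was one of the 2 that rose, with 4448, 4122, 4452 and 4006 normalised reads in bone marrow and 13733, 16200.4, 16442 and 19822 in small intestine. Its mean was 3.89-fold higher in small intestine (difference 1.95 ± 0.19, adjusted p = 8.49e-05). The sulfatide sulfatase Arsa measured 32.9, 59.3, 60.3 and 39.98 normalised reads in bone marrow and 118, 129, 143 and 160.0 in small intestine (difference 1.48 ± 0.24, adjusted p = 0.00168). As a description, the ratio of Man2b1 to Arsb reads was 1.43 to 1.64 in bone marrow and 47.1 to 57.4 in small intestine.

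**Figure D3:**
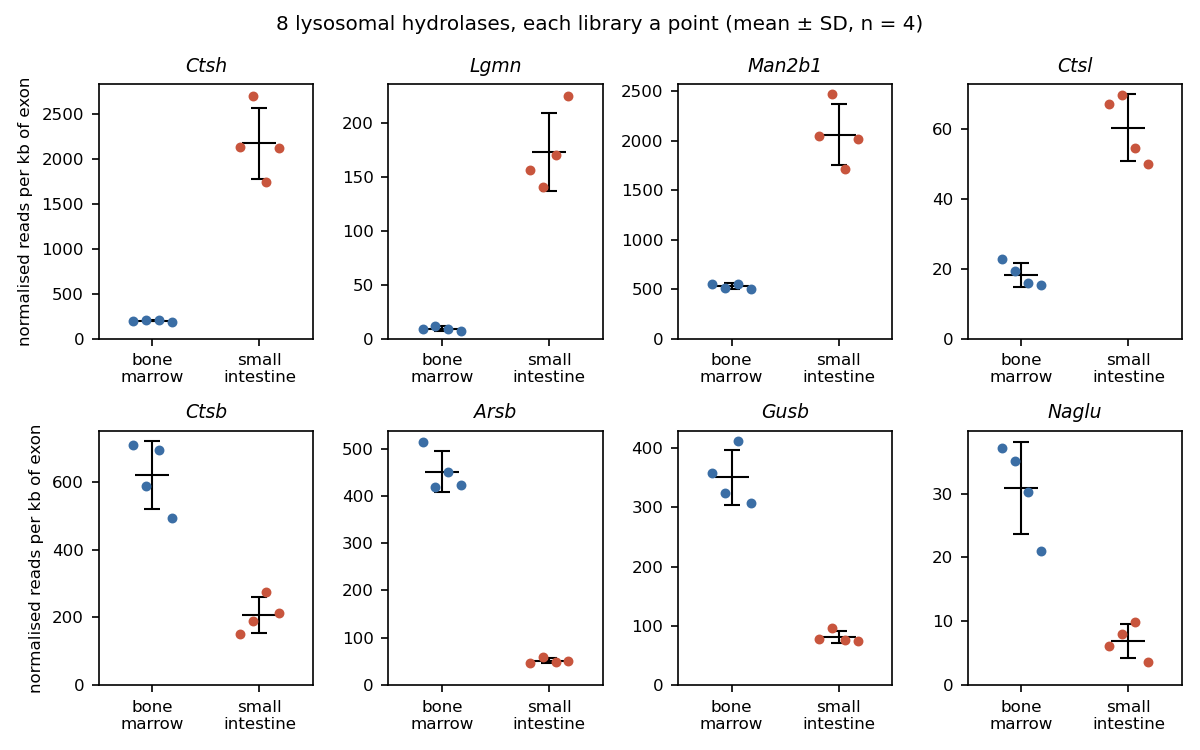
Normalised reads per kb of merged exon for 8 hydrolases in each of the 8 libraries (points), with mean ± SD as black bars (n = 4 per tissue). Ctsh, Lgmn, Man2b1 and Ctsl are higher in every intestinal library and Ctsb, Arsb, Gusb and Naglu lower, with no overlap between the tissues.

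Genes of lipid handling were each called, 4 higher (66.7%) and 2 lower (33.3%). The shares were 36.6% and 26.2% among the 17941 genes with at least 10 reads in a tissue, and no test was made. Asah1, the acid ceramidase, measured 704, 743, 757 and 777 normalised reads in bone marrow and 1339, 1363, 1458 and 1707 in small intestine (difference 0.97 ± 0.17, adjusted p = 0.00263). Psap, the saposin precursor, measured 809.8, 903, 825 and 637 normalised reads in bone marrow and 1445, 1166, 1192 and 1519.5 in small intestine (difference 0.75 ± 0.20, adjusted p = 0.0194). The cholesterol exporter Npc1 rose by 0.69 (adjusted p = 0.0218) and the acid lipase Lipa by 0.66 (adjusted p = 0.0383). The calls of Psap, Npc1 and Lipa were lost after centring each library on its median (adjusted p of 0.0816, 0.131 and 0.164); leaving out BM_1 also ended that of Npc1 (0.69, adjusted p = 0.0505), and leaving out BM_1, BM_3, SI_7 or SI_11 that of Lipa (differences of 0.61 to 0.68). The palmitoyl thioesterase Ppt1 fell, with 1829, 1460.2, 1638 and 1474 normalised reads in bone marrow and 883, 958, 797 and 903 in small intestine (difference -0.85 ± 0.18, adjusted p = 0.00579).

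Npc2, the soluble protein that hands cholesterol to Npc1, measured 1415, 1251, 1354 and 1019 normalised reads in bone marrow and 717, 686, 584 and 728 in small intestine (difference -0.88 ± 0.19, adjusted p = 0.00698). Npc1 itself measured 611, 665, 659 and 527 normalised reads in bone marrow and 918, 957, 909 and 1211 in small intestine. The 2 partners moved in opposite directions: the ratio of Npc2 to Npc1 reads was 1.88 to 2.32 in bone marrow and 0.601 to 0.781 in small intestine (log2 difference -1.57, exact permutation p = 0.0286, adjusted p = 0.0367 over 9 pairs).

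Among 6 membrane and lumenal proteins 2 rose (33.3%) and none fell. The shares were 36.6% and 26.2% among the 17941 genes with at least 10 reads in a tissue, and no test was made. The glycoprotein Cd68, also a macrophage marker, measured 282, 212, 212 and 181 normalised reads in bone marrow and 468, 484, 361 and 404 in small intestine (difference 0.95 ± 0.21, adjusted p = 0.00765), alongside the summed macrophage and dendritic cell genes given above. Lamp2, a main protein of the lysosomal membrane, measured 4425, 4566, 4819.9 and 4222 normalised reads in bone marrow and 6533, 8132, 8878 and 9626 in small intestine (difference 0.87 ± 0.19, adjusted p = 0.00766). That call did not hold with quantile normalisation (0.21, adjusted p = 0.273) or median-centring (0.69, adjusted p = 0.0710). Lamp1, its close relative, measured 4325, 4037, 3983 and 3225 normalised reads in bone marrow and 4322, 4446, 4839 and 5855 in small intestine, with overlap (difference 0.32 ± 0.20, adjusted p = 0.247), and passed with a mean-variance trend (adjusted p = 0.0467).

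Compared within libraries, Lamp2 gained on Lamp1: the ratio was 1.02 to 1.31 in bone marrow and 1.51 to 1.83 in small intestine (log2 difference 0.55, exact permutation p = 0.0286, adjusted p = 0.0367 over 9 pairs). The calcium channel Mcoln1, the progranulin gene Grn and Scarb2, the receptor that carries glucocerebrosidase, were not called, with differences of 0.08 ± 0.25, 0.02 ± 0.21 and -0.34 ± 0.20. Grn measured 3931, 3475, 3668 and 2623 normalised reads in bone marrow and 3014, 3284, 3473 and 4068 in small intestine. Scarb2 passed the threshold without SI_6, its highest intestinal library (-0.47, adjusted p = 0.0336), with or without BM_5, and narrowly with voom (-0.43, adjusted p = 0.04998).

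Set against one another per kb of exon, the 33 lysosomal genes changed order. In bone marrow the highest mean levels were those of Lamp1 (1455 normalised reads per kb), Ctsd (1017) and Grn (986). In small intestine they were those of Ctsh (2172), Man2b1 (2062) and Lamp1 (1819). Ctsh moved from rank 18 to 1, Lgmn from 33 to 19, Ctsb from 5 to 16 and Arsb from 9 to 29. Lengths were those of all annotated exons of a gene merged, and ranks between genes depend on that choice. In reads not divided by length, Man2b1 (16549) was above Ctsh (9772) in small intestine, and Ctsb (3766) above Ctsd (2392) in bone marrow. As a share of the summed reads of the 33 genes, Man2b1 went from 10.1% to 26.4% and Ctsh from 2.14% to 15.6%, while Arsb went from 6.50% to 0.494%.

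The summed level of the 33 genes was 36484 to 45146 normalised reads in bone marrow and 55112 to 73322 in small intestine, without overlap. As a share of all reads of a library it was 0.288% to 0.346% and 0.355% to 0.426%, also without overlap. The mean sum rose from 41945 to 62738 normalised reads. Mean Man2b1 rose from 4257 to 16549 and mean Ctsh from 896 to 9772, gains that together were as large as that rise. The higher sum therefore does not show a rise of the 33 genes as a group. The summed level of the 22 V-ATPase subunit genes overlapped in normalised reads, at 10919 to 13196 and 10405 to 13235. As a share of all reads, however, it was lower in each intestinal library, at 0.0861% to 0.103% and 0.0669% to 0.0769%. By gene, 14 of the 33 rose (42.4%) and 9 fell (27.3%), with a median difference of 0.27. Of the 22, 6 rose and 6 fell (27.3% each), against 22.0% and 12.9% of all genes. Of the 18 subunit genes that reached 10 reads in a tissue, 33.3% rose and 33.3% fell. Among the 17941 genes of the whole table that did, 36.6% rose and 26.2% fell, and no test was made of these shares. The median difference of the subunit genes depended on those of few reads: it was 0.27 over the 22, 0.09 over the 18 that reached 10 reads in a tissue and -0.0028 over the 17 that reached 10 reads over all libraries, against 0.37, 0.31 and 0.16 for the genes of the whole table under the same cuts. All 33 lysosomal genes passed both cuts. Leaving out 1 library at a time gave 12 to 15 and 8 to 10 calls for the lysosomal proteins and 4 to 7 and 5 to 7 for the subunits, and 4 subunits were called higher after median-centring.

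Within the pump, 4 of 9 V0 subunit genes rose (44.4%) and 1 fell (11.1%), and 2 of 13 V1 subunit genes rose and 5 fell. The V0 rises include Atp6v0e2 and Atp6v0d2, whose calls are uncertain. Of the 9 V1 genes that reached 10 reads in a tissue, 22.2% rose and 55.6% fell. Among the 17941 such genes of the whole table, 36.6% rose and 26.2% fell. Summed over genes, V1 was 7364 to 8910 normalised reads in bone marrow and 5332 to 6698 in small intestine, and V0 was 3555 to 4326 and 5072 to 6537, both without overlap. As a share of all reads V1 stayed without overlap (0.0580% to 0.0695% and 0.0343% to 0.0411%), whereas V0 overlapped (0.0280% to 0.0334% and 0.0326% to 0.0380%). The V0 sum leaves out Tcirg1, which encodes the a3 subunit, lacks the symbol prefix and was called lower. With it 4 of 10 V0 genes rose and 2 fell, and the V0 sum overlapped, at 5446 to 6652 and 6461 to 7922 normalised reads, as did the sum of all 23 subunit genes, at 12810.0 to 15560 and 11832 to 14621. No test was made of these sums or of the difference between sectors.

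Atp6v1a, the catalytic A subunit of V1 (chr16:44085402-44139705), measured 3109, 2833, 3111 and 2544 normalised reads in bone marrow and 1040.3, 1323, 1317 and 1593 in small intestine (difference -1.15 ± 0.20, adjusted p = 0.00222). Atp6v1b2, the B subunit that pairs with it in the catalytic head, measured 1530.0, 1581, 1686 and 1427 normalised reads in bone marrow and 723, 632, 637 and 781 in small intestine (difference -1.17 ± 0.18, adjusted p = 0.00102). Both fell to a like degree, and the ratio of Atp6v1a to Atp6v1b2 reads was 1.78 to 2.03 in bone marrow and 1.44 to 2.09 in small intestine. The C subunit gene Atp6v1c1, which links V1 to V0, measured 1014, 880.4, 1020.1 and 759.5 normalised reads in bone marrow and 412, 423, 407 and 412 in small intestine (difference -1.13 ± 0.18, adjusted p = 0.00135).

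Of the peripheral stalk, Atp6v1e1 fell (-0.67 ± 0.20, adjusted p = 0.0316), a call lost without BM_1 (adjusted p = 0.0753), BM_3 (0.0538) or BM_4 (0.0824). The G subunit genes diverged: Atp6v1g2 measured 134, 126, 132 and 139 normalised reads in bone marrow and 64.4, 40.2, 59.1 and 68.7 in small intestine (difference -1.17 ± 0.21, adjusted p = 0.00269), and Atp6v1g1 402, 322, 355 and 328 normalised reads in bone marrow and 337, 330.1, 336 and 401 in small intestine (difference -0.0028 ± 0.18, not called). Their ratio was 0.333 to 0.422 in bone marrow and 0.122 to 0.191 in small intestine (log2 difference -1.16, exact permutation p = 0.0286, adjusted p = 0.0367 over 9 pairs). Atp6v1d of the central stalk was not called (-0.44 ± 0.19) but passed as lower without BM_5 (-0.55, adjusted p = 0.00884), with or without SI_6, and with a filter on low values (adjusted p = 0.0289), a mean-variance trend (0.0164) or voom (0.0128).

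2 V1 genes rose. Atp6v1h, the regulatory H subunit (chr1:5070018-5162529), measured 721, 627, 618 and 728 normalised reads in bone marrow and 1387, 1993, 1956 and 1674 in small intestine (difference 1.36 ± 0.20, adjusted p = 7.98e-04). Atp6v1f, the F subunit of the central stalk, measured 224, 237, 219 and 176 normalised reads in bone marrow and 385, 559, 454 and 602 in small intestine (difference 1.20 ± 0.22, adjusted p = 0.00264). Its neighbour Atp6v1fnb also rose, from few reads (2.30, 3.91, 0 and 0 normalised reads in bone marrow and 25.1, 27.7, 10.9 and 14.2 in small intestine, difference 2.67 ± 0.51, adjusted p = 0.00349), a call lost with quantile normalisation (1.69, adjusted p = 0.0750). The ratio of Atp6v1a to Atp6v1h reads, as a description, went from 3.49 to 5.03 in the bone marrow libraries to 0.664 to 0.952 in the intestinal ones.

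In the membrane sector Atp6v0d1, which couples V0 to the central stalk (chr8:105524465-105566047), measured 1272, 1186, 1179 and 1046 normalised reads in bone marrow and 1910.2, 2432, 2196 and 2484 in small intestine (difference 0.94 ± 0.18, adjusted p = 0.00382). Atp6v0b of the proton-carrying ring measured 813, 777, 826 and 621 normalised reads in bone marrow and 986, 1272, 1212 and 1575 in small intestine (difference 0.72 ± 0.21, adjusted p = 0.0298); its call was lost after median-centring (0.54, adjusted p = 0.164) and without BM_1 (0.0540), BM_3 (0.0530) or BM_4 (0.0503). Atp6v0c, the main ring protein, fell, with 382, 292, 335 and 258 normalised reads in bone marrow and 119, 204, 190.3 and 158 in small intestine (difference -0.91 ± 0.24, adjusted p = 0.0165). Reads of Atp6v0c can be shared with near-identical copies such as the pseudogene Atp6v0c-ps2 (9.96, 9.13, 13.4 and 5.58 normalised reads in bone marrow and 0, 0, 3.28 and 2.37 in small intestine), so its level is uncertain.

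The a subunits anchor the pump and direct it to membranes. The a gene with the highest level per kb in bone marrow, Tcirg1 (a3), measured 2326, 2164, 2365 and 1891 normalised reads in bone marrow and 1427, 1452, 1006 and 1386 in small intestine, lower in each intestinal library (difference -0.74 ± 0.20, adjusted p = 0.0203). Neither Atp6v0a1 nor Atp6v0a2 was called. Atp6v0a1 measured 398, 351, 344 and 356 normalised reads in bone marrow and 504, 473, 405 and 468 in small intestine (difference 0.35 ± 0.17, adjusted p = 0.167), and Atp6v0a2 601, 548, 685 and 573 normalised reads in bone marrow and 827, 494, 389 and 447 in small intestine (difference -0.21 ± 0.26, adjusted p = 0.539). The libraries did not overlap for Atp6v0a1, which passed without SI_10 (0.41, adjusted p = 0.0140), with a filter on low values (adjusted p = 0.0334) and with quantile normalisation (0.0314). Their ratio, Atp6v0a2 to Atp6v0a1, was 1.51 to 1.99 in bone marrow and 0.954 to 1.64 in small intestine, and the difference of -0.56 did not pass (exact permutation p = 0.114, adjusted p = 0.129). Atp6v0a4 and Atp6v0d2 had few reads: Atp6v0a4 measured 0.766, 2.61, 0 and 19.5 normalised reads in bone marrow and 26.2, 8.32, 25.2 and 10.7 in small intestine (difference 1.83 ± 0.73, adjusted p = 0.087). It passed when BM_5 was left out, alone (adjusted p = 0.00951) or with SI_6 (0.0270), with a mean-variance trend (0.0456) and with voom (0.0236). Atp6v0d2, with 3.06, 5.22, 2.87 and 7.44 normalised reads in bone marrow and 7.64, 12.5, 28.4 and 14.2 in small intestine, was called (1.21 ± 0.35, adjusted p = 0.0287) but lost the call when BM_1, BM_3, BM_4, SI_7, SI_10 or SI_11 was left out (adjusted p of 0.0501 to 0.0826). Quantile normalisation cut the Atp6v0d2 difference to 0.31 (adjusted p = 0.513), and the call was also lost with median-centring (1.03, adjusted p = 0.0982), a mean-variance trend (adjusted p = 0.0724) and voom (1.58, adjusted p = 0.0536). Its ratio to Atp6v0d1 did not pass the exact permutation test (p = 0.514). Atp6v0e was not called (0.19 ± 0.26), and its relative Atp6v0e2 rose from 0, 0.652, 0 and 1.86 normalised reads in bone marrow to 15.3, 18.03, 13.1 and 2.37 in small intestine (2.32 ± 0.50, adjusted p = 0.00683).

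The other 4 subunit genes, Atp6v1b1, Atp6v1c2, Atp6v1e2 and Atp6v1g3, were at or near the detection limit, with means of 0 to 5.35 normalised reads, and none was called. The ratio of Atp6v1b1 to Atp6v1b2 reads did not overlap between the tissues (log2 difference 1.90, exact permutation p = 0.0286, adjusted p = 0.0367 over 9 pairs) but rests on these few reads.

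**Figure D4:**
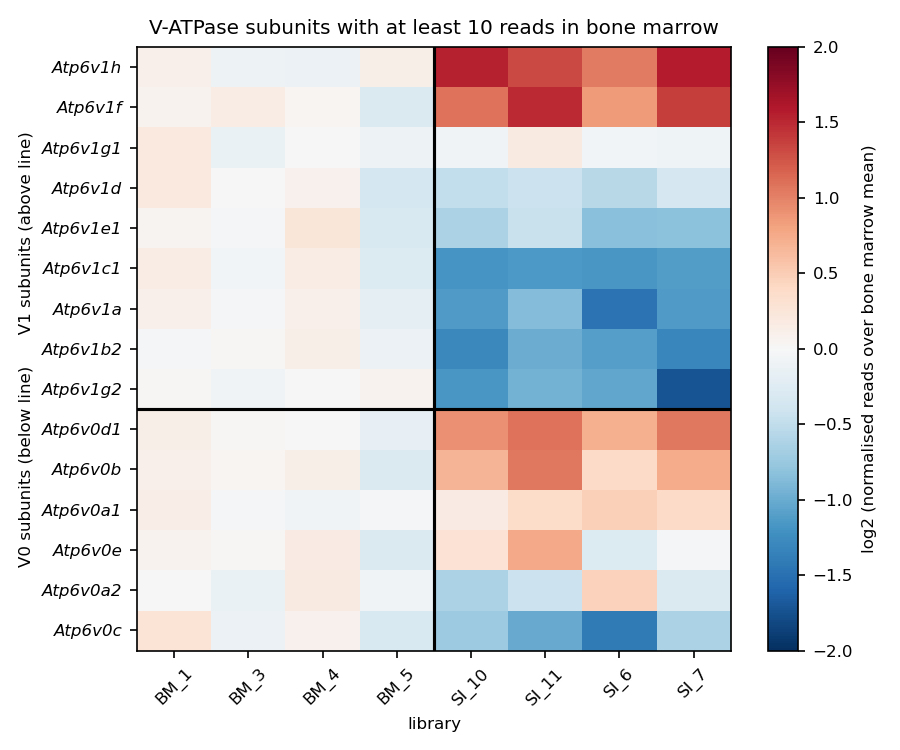
Level of each V-ATPase subunit gene with at least 10 normalised reads in bone marrow, in each library (columns) as log2 of normalised reads over the bone marrow mean, with V1 above and V0 below the horizontal line. Atp6v1h and Atp6v1f stand out as red rows in a V1 sector that is otherwise blue or near white in small intestine, whereas Atp6v0d1 and Atp6v0b are red and Atp6v0c blue in V0.

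Of the 3 transcription factors, Tfe3 and Tfeb rose and Mitf was not called. Tfe3 (chrX:7762560-7775202) measured 191, 140.2, 166 and 229 normalised reads in bone marrow and 571, 595, 651 and 623 in small intestine (difference 1.75 ± 0.20, adjusted p = 2.57e-04). Tfeb (chr17:47737030-47792419) measured 129, 110.2, 128 and 121 normalised reads in bone marrow and 236, 234, 249 and 266 in small intestine (difference 0.99 ± 0.17, adjusted p = 0.00191). Both groups of libraries were well apart, and both calls held under each of the 16 alternatives. Mitf measured 97.3, 91.3, 81.3 and 78.1 normalised reads in bone marrow and 108, 105, 118 and 88.9 in small intestine, with overlap (difference 0.26 ± 0.18, adjusted p = 0.32).

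Relative to Tfeb within each library, Tfe3 gained and Mitf lost. The ratio of Tfe3 to Tfeb reads was 1.27 to 1.89 in bone marrow and 2.35 to 2.61 in small intestine (log2 difference 0.76), and that of Mitf to Tfeb was 0.634 to 0.828 and 0.335 to 0.474 (log2 difference -0.73). Neither ratio overlapped between tissues (exact permutation p = 0.0286, adjusted p = 0.0367 over 9 pairs, for each). The fourth member of the family, Tfec, which belongs to the wider pathway list, measured 2064, 1943, 2410.4 and 1789.6 normalised reads in bone marrow and 33.8, 11.1, 29.5 and 22.5 in small intestine (difference -6.28 ± 0.31, adjusted p = 2.68e-06). Per kb of exon, Tfeb went from 21.5 to 43.4, Tfe3 from 19.6 to 65.9, Mitf from 14.04 to 16.97 and Tfec from 367 to 4.33 normalised reads. The means of Tfeb and Tfe3 were close in bone marrow, and Tfe3 was above Tfeb in small intestine.

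**Figure D5:**
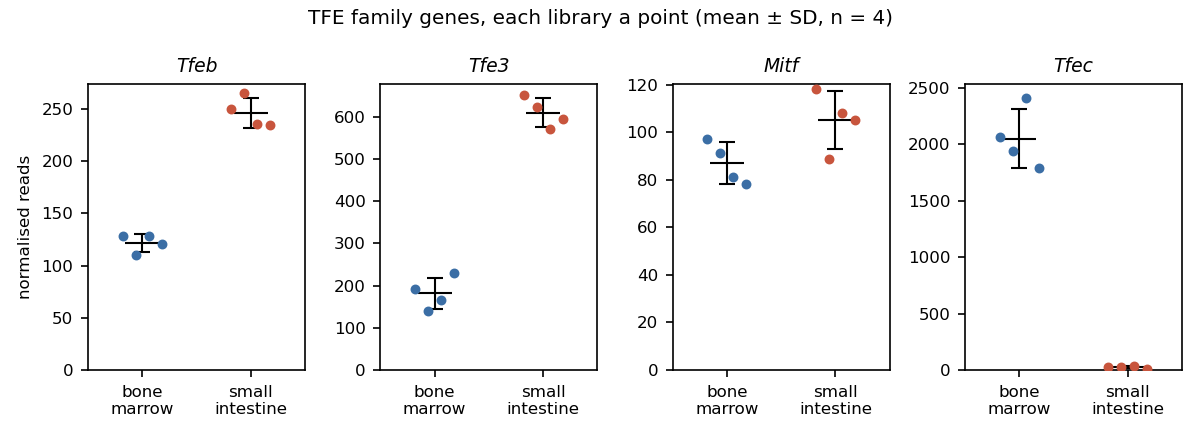
Normalised reads of the TFE family genes Tfeb, Tfe3, Mitf and Tfec in each library (points), with mean ± SD as black bars (n = 4 per tissue). Tfeb and Tfe3 are higher in every intestinal library, Mitf overlaps, and Tfec is at 1789.6 to 2410.4 normalised reads in bone marrow and 11.1 to 33.8 in small intestine.

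A wider list of 78 genes of the pathway outside the 60 was followed in the same test, and 22 rose (28.2%), 25 fell (32.1%) and 31 were not called, against 22.0% higher and 12.9% lower among all genes. Of the 75 that reached 10 reads in a tissue 29.3% rose and 33.3% fell, against 36.6% and 26.2%. Of 23 other acid hydrolases and cofactors 7 rose (30.4%) and 6 fell (26.1%). Gm2a, the activator protein that presents GM2 ganglioside to hexosaminidase, rose from 695, 639.8, 674 and 455 normalised reads in bone marrow to 4159.9, 4870.4, 5179.8 and 6590.2 in small intestine (difference 3.07 ± 0.23, adjusted p = 2.24e-05). Galns, a sulfatase of keratan and chondroitin sulfate, fell like Arsb, with 812, 821, 919 and 681 normalised reads in bone marrow and 119, 108, 101 and 102 in small intestine (difference -2.86 ± 0.18, adjusted p = 9.81e-06).

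Of 21 other lysosomal membrane proteins 8 rose (38.1%) and 4 fell (19.0%). The shares were 36.6% and 26.2% among the 17941 genes with at least 10 reads in a tissue, and no test was made. Slc11a1, the metal transporter NRAMP1, rose most, with 3.83, 7.83, 10.5 and 8.37 normalised reads in bone marrow and 2508, 3927, 5070.4 and 4914 in small intestine (difference 8.52 ± 0.31, adjusted p = 7.53e-07). Tpcn1, a two-pore channel, fell most (-2.53 ± 0.21, adjusted p = 4.38e-05), and the tetraspanin Cd63 fell by 1.38.

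Mannose 6-phosphate sorting was the list with no gene higher: 4 of 6 fell (66.7%). Of all genes with at least 10 reads in a tissue, 36.6% rose and 26.2% fell, and no test was made of so short a list. Gnptab, whose product adds the tag, measured 1876, 1664, 1921 and 1593 normalised reads in bone marrow and 740.1, 569, 408 and 443 in small intestine (difference -1.74 ± 0.23, adjusted p = 5.63e-04). Nagpa, which uncovers the tag, and the tag receptor Igf2r fell by 1.54 and 0.89. Sort1, a sorting receptor counted in this list though it does not bind the tag, fell by 1.30. M6pr and Gnptg were not called (-0.06 ± 0.18 and -0.04 ± 0.19).

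Of 11 V-ATPase partners outside the prefix 3 rose (27.3%) and 4 fell (36.4%). Rogdi and Dmxl2, which belong to the machinery that reassembles V1 on V0, rose by 1.98 and 1.73, and the accessory subunit Atp6ap1 by 0.79. Ccdc115 and Vma21, which assist V0 assembly, had differences of -1.93 ± 0.20 and -1.25 ± 0.17, and the accessory subunit Atp6ap2 -1.81 ± 0.19, all called lower like Tcirg1. Among 17 genes of mTORC1 and TFE control 4 rose (23.5%) and 7 fell (41.2%). For both lists the shares among the 17941 genes with at least 10 reads in a tissue were 36.6% and 26.2%, and no test was made. Rragd, a Rag GTPase, measured 5.36, 5.87, 7.66 and 13.9 normalised reads in bone marrow and 358, 161, 83.1 and 115 in small intestine (difference 3.81 ± 0.45, adjusted p = 2.70e-04). Its intestinal libraries stood in the order of the summed epithelial genes, lowest in SI_10 and highest in SI_6, and the part of such cells was not tested. Of the lysosomal anchor of the Rag GTPases, Lamtor3 rose by 0.75, Lamtor2 and Lamtor4 fell by 1.60 and 1.90, and Lamtor1 and Lamtor5 were not called (-0.49 ± 0.19 and -0.26 ± 0.24).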

How the data were processed

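RNA was sequenced from 4 bone marrow and 4 small intestinal libraries of sorted mouse eosinophils (total RNA, amplified to cDNA, single-end reads). The authors counted reads per gene on GRCm38 with the nf-core/rnaseq workflow, and deposited variance-stabilised values on a log2 scale made with DESeq2 in R 4.0.3; no aligner or strand setting is given in the sources used here, so overlapping and antisense genes cannot be separated. Column names gave the tissue but not the animal, so libraries were grouped by tissue alone, and p-values measure the spread between these libraries.

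The transformation was inverted for each library: 100% of values came out as whole reads (largest deviation 0.00628 reads, tolerance 0.05), with size factors of 0.721 to 1.53 and totals of 11508002 to 21289164 reads. This depth limits precision for genes of few reads, for which counting error dominates. The deposited log2 values of all 38392 genes were tested with limma 3.58.1 (R 4.3.3) with a constant prior variance and Benjamini-Hochberg adjustment over all genes, called at 0.05. Ratios of related genes within a library were compared with a two-sided exact permutation test over all 70 assignments, adjusted over 9 pairs. Exon lengths and positions came from GENCODE M21 (GRCm38), promoters from RefSeq (GRCm38.p6). The test was checked on simulated data. Alternatives were a filter on low values, other scalings, other variance models, limma's voom on recovered reads, and leaving out libraries; median-centring over genes with at least 10 reads and leaving out BM_5 with SI_6 were chosen after seeing the data. Values per library were printed for Tfeb, Tfe3, Mitf, the genes of each pair, the largest rises and falls of each role and its highest gene per kb; other members appear by difference, and of each pathway list the largest rise and fall. Further genes of the pathway lists, and the ratios and sums marked as descriptions, were chosen after their values were seen. The members and lists were chosen with earlier results of these data known.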

Additional observations from a re-analysis of the deposited data

Results flagged for a closer look

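Among 137 sets of 4 libraries examined (each gene and each pair in each tissue), 10 had 1 library far from the other 3, against 6.85 expected by chance at 1 in 20. The value given is the gap from that library to its nearest neighbour as a fraction of the range of the 4 libraries. In bone marrow, BM_5 was lowest for Gla (0.832) and Hexa (0.887), and BM_4 was lowest for the ratio of Ctsl to Ctsb (0.848). In small intestine, SI_11 was highest for Atp6v1g1 (0.888) and Gusb (0.838) and lowest for the ratio of Mitf to Tfeb (0.854). SI_6 was lowest for Mcoln1 (0.831) and highest for the ratio of Atp6v0a2 to Atp6v0a1 (0.835); SI_6 also held the most epithelial marker reads, and their part was not tested. For Atp6v1b1, highest in SI_10 (0.92), and Atp6v1g3, lowest in SI_6 (0.893), the other 3 libraries held 1 read each, so these values rest on single reads.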

How the results depend on the processing

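The tissues were compared unpaired: the sample titles number the bone marrow and intestinal samples apart, and no number is common to a bone marrow and an intestinal column. Of the 39 called genes, 30 (16 higher, 14 lower) kept their direction and their call under each of the 16 alternatives in which they were tested. Among these 30, Atp6v0e2 and Atp6v0c-ps2 were removed by the filter on low values and so were not tested there. The other 9 lost the call under at least 1 (Atp6v0d2, Atp6v0b, Atp6v1e1, Atp6v1fnb, Psap, Npc1, Lipa, Lamp2 and Ctsd). No called gene changed direction. Of the 21 genes that were not called, 7 passed under at least 1 alternative and 9 changed sign under at least 1 without being called in that direction. Leaving out each library in turn gave 19 to 24 genes called higher and 14 to 17 lower, 12 to 15 and 8 to 10 among hydrolases and other lysosomal proteins, 4 to 7 and 5 to 7 among V-ATPase subunits, 2 of the transcription factors throughout, 22 to 24 and 21 to 28 in the wider pathway lists, and 7 to 8 of the 9 pairs. The pair count is of ratios whose libraries did not overlap between the tissues. It has no background, because no share over other gene pairs was computed. Of single genes with at least 10 reads in a tissue, 65.3% separated without overlap. Counts stayed within 1.5 times their value under every setting that was run. The scaling moved the median difference over all genes from 0.37 to 0.20 (median-centring), -0.03 (quantile normalisation) and 0.77 (voom), and the number of genes called higher among the 60 from 23 to 17, 21 and 23. Calls of Atp6v0d2, Atp6v0b, Atp6v1fnb, Psap, Npc1, Lipa and Lamp2 were lost under at least 1 of these scalings, and the cause was not tested. Counting error weighs most on members of few reads, such as Atp6v0d2, Atp6v0e2 and Atp6v0a4.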
